A study of Mus musculus with 18 samples.

Results

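The genes described here are Cubn, Lrp2, Amn and Dab2, which encode the endocytic receptors cubilin and megalin, the cubilin partner amnionless, and the adaptor disabled-2. They were taken by gene name from 18 RNA sequencing libraries of IMCD3 cells, and all 4 names were found among the 49845 gene rows of every library. Cubn, Lrp2 and Dab2 were among the 16684 genes tested. Amn was not, because it reached 1 scaled TPM in a single library, so it is given by its levels.

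IMCD3 cells are a mouse kidney line derived from inner medullary collecting duct, listed with the strain background Tg(SV40E)bri/7 and at passage 10 to 15 in all groups. The groups were an Ift140 knockout line under flow and static, a Dync2h1 knockout line under flow and static, and wild-type (WT) IMCD3 cells under flow and static, with 3 libraries each. Ift140 and Dync2h1 proteins both serve retrograde transport within the primary cilium. Flow was a fluid shear stress of about 0.7 dyne/cm2 for 3 h in microslide VI ibiTreat chambers, and static cells were kept in the same chambers for the same time. The labels give neither how many clones stand for each knockout nor whether replicates were separate cultures, so p-values measure only the spread between these libraries.

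Megalin, a giant member of the lipoprotein receptor family, and cubilin, a large protein without a membrane anchor of its own, are best known from the apical membrane of the kidney proximal tubule, where they take up filtered proteins, vitamin carriers and hormones. Amnionless binds cubilin and carries it to the cell surface. Disabled-2 binds the cytoplasmic tail of megalin and links it to the clathrin coat. The collecting duct, from which IMCD3 cells were derived, is not the segment these receptors are best known for.

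Levels below are scaled TPM, a transcript share corrected for gene length and for library composition, as mean ± SD with n = 3 per group. TPM keeps no sequencing depth, so the counting error behind a value is not known. Differences are log2 differences of scaled TPM + 1 with the SE from limma, and passing means a p under 0.05 after Benjamini-Hochberg adjustment over all 16684 genes. The added 1 makes the fold of genes near 0 come out small. In bulk RNA, fewer cells with a transcript and less of it per cell cannot be told apart.

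The targeted genes were checked first. Ift140 stood at 7.61, 8.66 and 14.3 in the Ift140 knockout under flow and at 6.26, 6.39 and 7.31 when static, against 16.4, 15.2 and 18.8 in WT under flow and 16.5, 19.4 and 18.8 in static WT. The differences were -0.71 (SE 0.18, limma adjusted p = 0.0143) under flow, or -0.96 (adjusted p = 0.000413) without replicate 3 of the knockout, and -1.33 (SE 0.18, adjusted p = 0.000111) static. Dync2h1 averaged 9.34 ± 1.92 in its knockout under flow against 31.7 ± 3.54 in WT (-1.67, SE 0.20, adjusted p = 1.53e-05), and 13.4 ± 3.30 against 39.9 ± 5.69 when static (-1.52, SE 0.20, adjusted p = 4.04e-05). One library, replicate 3 of the Ift140 knockout under flow as labelled, stood apart: its Ift140 value of 14.3 was nearly that of WT, its scaling factor of 1.21 was the largest of all, and it held the highest Lrp2 and Dab2 of the 18 libraries. For Cubn, Lrp2 and Dab2, differences that use it are given with and without it.

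The cell type was read from marker lists. The 6 epithelial markers were all tested, and their summed level was 3446 to 4592 in the Ift140 knockout under flow and 3070 to 3326 static, 4556 to 4838 in the Dync2h1 knockout under flow and 3046 to 3166 static, and 3763 to 3942 in WT under flow and 2199 to 2344 static. Static WT was thus below every other group, and each flow group was above its static group, and the part of this in the results was not tested. Of the 12 markers of collecting duct principal cells, Tfcp2l1, Hoxb7 and Scnn1g were tested, and Aqp2, the vasopressin-regulated water channel, never exceeded 0.0751. Of the 18 markers of proximal tubule, 4 were tested (Slc5a2, Aqp1, Ggt1 and Gatm), while Slc34a1, Slc22a6, Slc22a8, Miox and Kap were listed at 0 in every library. The proximal tubule markers summed to 9.06 to 9.12 in the Ift140 knockout under flow and 10.0 to 15.6 static, 8.35 to 13.9 in the Dync2h1 knockout under flow and 14.2 to 16.2 static, and 9.85 to 16.3 in WT under flow and 12.8 to 19.0 static, ranges that overlap in static culture. In static WT, Gatm averaged 6.79, Ggt1 4.43, Slc5a2 2.65 and Aqp1 1.71. All other proximal tubule markers stayed under 1 in every library. Cubn and Lrp2 in WT thus stood beside proximal tubule markers at low levels or at 0.

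Upstream sequence of Cubn and Lrp2 is shown because these receptors differed most between the lines. It comes from the RefSeq promoter table on GRCm38.p6, in which all 4 members were found, and is read 5′ to 3′ on the minus strand of chromosome 2. The Lrp2 stretch ends at the base before the GENCODE start. The Cubn stretch follows the RefSeq start and ends upstream of the GENCODE start at 13491813, so bases between them are not shown. The stretches are chr2:13491877-13492126 for Cubn and chr2:69586066-69586279 for Lrp2, the Lrp2 stretch being shorter because bases that GENCODE counts as transcribed were left out. Capitals mark matches to any of 5 short motifs searched on both strands.
Cubn: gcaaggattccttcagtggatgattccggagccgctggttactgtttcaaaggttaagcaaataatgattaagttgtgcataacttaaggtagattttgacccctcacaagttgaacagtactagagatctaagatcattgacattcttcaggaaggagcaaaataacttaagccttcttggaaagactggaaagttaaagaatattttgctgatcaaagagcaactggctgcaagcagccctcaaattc
Lrp2: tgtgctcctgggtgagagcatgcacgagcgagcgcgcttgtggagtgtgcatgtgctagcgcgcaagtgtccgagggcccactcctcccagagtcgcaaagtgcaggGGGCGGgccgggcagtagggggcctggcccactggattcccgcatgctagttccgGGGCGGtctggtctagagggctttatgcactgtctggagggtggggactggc
A half-site bound by homeodomain factors was searched as GTTAAT. The half-site bound by nuclear receptors was searched as AGGTCA. Of the common core promoter elements, the first was searched as TATAAA, the next as CCAAT and the last, the GC box, as GGGCGG. The 250 bases shown for Cubn held no match to any of them. The 214 bases before Lrp2 held 2 GC boxes and no match to the other motifs. Among windows of 250 bases before the starts of all 32851 promoters in the table, 32.7% hold GGGCGG, 33.8% hold CCAAT, 14.0% the nuclear receptor half-site, 12.4% the letters TATAAA and 6.43% the homeodomain half-site, so that most promoters lack any given motif. In the first 214 bases of these windows, 27.6% hold a GC box. That part lies furthest from each start, and the bases nearest the start were left out. Dab2 has 2 starts in the table, and 1 of them is preceded by a match to GTTAAT, the other by none of the 5 motifs. Amn has 1 match to CCAAT and 1 GC box. These matches describe letters in a window and say nothing of binding.

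Cubn (GRCm38, chromosome 2, 13276338 to 13491813, minus strand) was among the most abundant genes of WT cells and nearly lost in both knockout lines. In static culture it stood at 2.28, 3.50 and 3.96 in the Ift140 knockout and at 3.72, 3.92 and 4.38 in the Dync2h1 knockout, against 408, 407 and 414 in WT. Every knockout library was far below every WT library. In WT it ranked 265 of the 16684 tested genes by static level, with 1.59% of the genes at or above it, and in the knockouts it ranked 12486 (Ift140) and 12001 (Dync2h1).

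The static mean in the Ift140 knockout, 3.25 ± 0.87, was 0.792% of the WT mean of 409.9 ± 3.83. The difference was -6.62 (SE 0.15, limma adjusted p = 7.04e-14), with only 3 of the tested genes falling further. The Dync2h1 knockout mean, 4.01 ± 0.34, was 0.977% of the same WT mean (-6.36, SE 0.15, adjusted p = 8.64e-14), and 2 genes fell further. Both comparisons use the same WT libraries.

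Under flow Cubn again separated the lines. It read 5.57, 3.96 and 5.55 in the Ift140 knockout and 3.10, 4.14 and 3.70 in the Dync2h1 knockout, against 428, 357 and 355 in WT. The Ift140 knockout under flow differed from WT by -5.99 (SE 0.15, adjusted p = 3.26e-13) and by -6.05 (adjusted p = 1.07e-11) without replicate 3. The Dync2h1 knockout under flow differed by -6.36 (SE 0.15, adjusted p = 8.68e-14), the largest fall of all tested genes in that comparison.

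Between the 2 knockouts Cubn did not pass: the Dync2h1 line minus the Ift140 line gave 0.26 (SE 0.15, adjusted p = 0.242) static and -0.37 (SE 0.15, adjusted p = 0.0674) under flow, and their libraries overlapped both times. With the values scaled as deposited the difference under flow passed (-0.54, adjusted p = 0.0441), and without Ift140 knockout flow replicate 3 it was -0.30 (adjusted p = 0.191). It also passed without Ift140 knockout static replicate 1 (adjusted p = 0.0306), static replicate 3 (adjusted p = 0.0497) or flow replicate 2 (adjusted p = 0.0174). The values are sums over a gene and do not tell intact from truncated transcripts. A transcript on the opposite strand, Gm13270, lies over Cubn and ranged between 0.244 and 2.38 over the libraries. Whether reads were assigned by strand is not given in the sources used here, so a share of the residual Cubn signal and Gm13270 cannot be told apart.

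**Figure D1:**
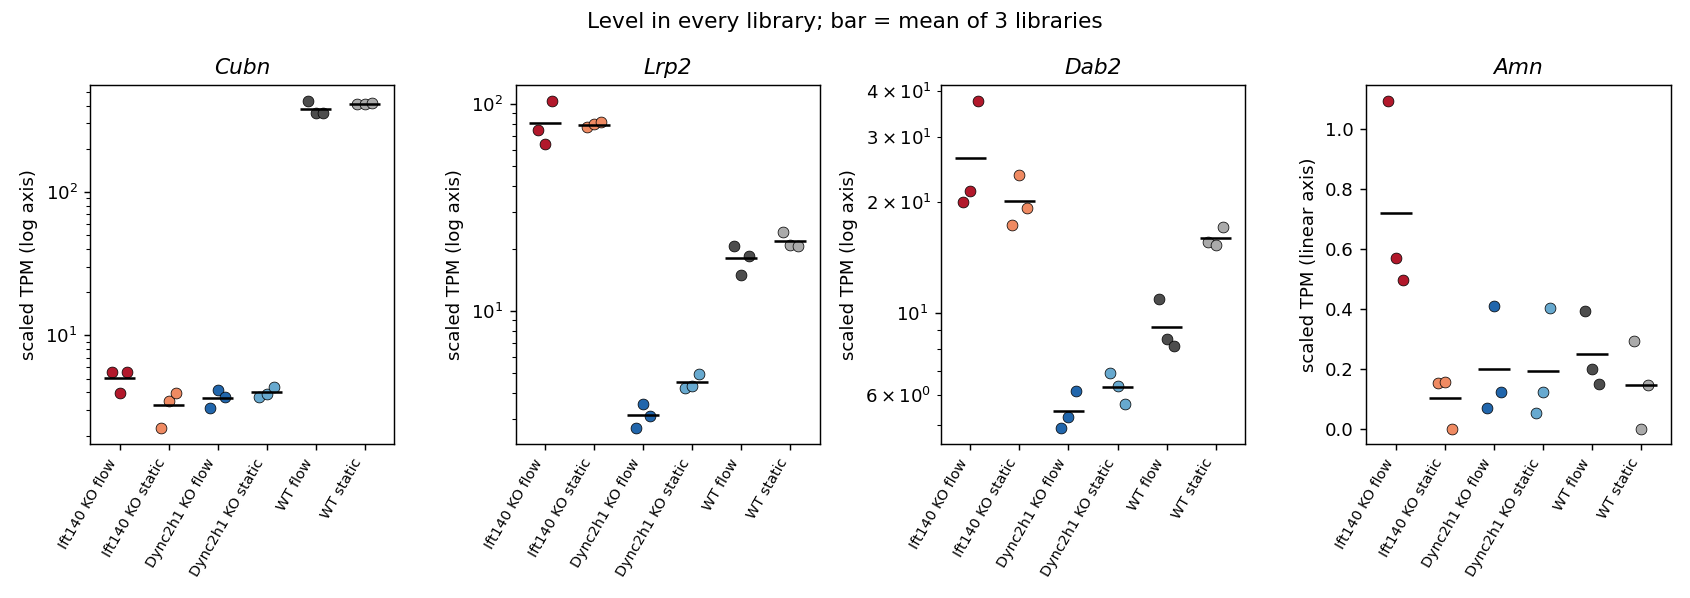
Scaled TPM of Cubn, Lrp2 and Dab2 on log axes and of Amn on a linear axis, 1 point per library and a bar at the mean of 3 libraries, for each of the 6 groups. Cubn lies at 355 or above in all WT libraries and at 5.57 or below in all knockout libraries, while Lrp2 and Dab2 are highest in the Ift140 knockout and lowest in the Dync2h1 knockout.

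Lrp2 (GRCm38, chromosome 2, 69424340 to 69586065, minus strand), the megalin gene, moved in opposite directions in the 2 knockout lines. In static culture it stood at 77.1, 80.1 and 81.3 in the Ift140 knockout and at 4.25, 4.34 and 4.93 in the Dync2h1 knockout, against 24.1, 20.8 and 20.5 in WT. No libraries overlapped between any pair of these groups. The Ift140 knockout mean of 79.5 ± 2.16 was 3.64 times the WT mean of 21.8 ± 1.97 (1.82, SE 0.15, limma adjusted p = 7.50e-07), and 24 genes rose further. The Dync2h1 knockout mean of 4.51 ± 0.37 was 20.6% of the WT mean (-2.05, SE 0.15, adjusted p = 8.48e-08).

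The same order held under flow. Lrp2 read 75.0, 64.3 and 103 in the Ift140 knockout and 2.73, 3.54 and 3.11 in the Dync2h1 knockout, against 20.6, 14.8 and 18.4 in WT. The Ift140 knockout was higher than WT by 2.09 (SE 0.15, adjusted p = 1.82e-07), and by 1.90 (adjusted p = 3.07e-07) without replicate 3. The Dync2h1 knockout was lower than WT, at 17.4% of its mean (-2.19, SE 0.15, adjusted p = 4.04e-08). Set directly against each other, the Dync2h1 knockout was lower than the Ift140 knockout, with differences of -3.87 (SE 0.15, adjusted p = 5.99e-11) static and -4.29 (SE 0.15, adjusted p = 1.60e-11) under flow, or -4.09 (adjusted p = 4.16e-11) without Ift140 knockout replicate 3.

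The balance of the receptors therefore differed between the lines, as a ratio of length-corrected levels within each library. Megalin transcript exceeded cubilin transcript 13.5-fold to 18.6-fold in the Ift140 knockout under flow and 20.5-fold to 33.8-fold static. In the Dync2h1 knockout Lrp2 was 0.841 to 0.879 times Cubn under flow and 1.11 to 1.14 times Cubn static. In WT, cubilin transcript exceeded megalin transcript 19.3-fold to 24.1-fold under flow and 16.9-fold to 20.2-fold static. The ranges of the 3 genotypes did not overlap.

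Dab2 (GRCm38, chromosome 15, 6299788 to 6440712, plus strand), the clathrin adaptor of megalin, was lowest in the Dync2h1 knockout. In static culture it stood at 17.3, 23.6 and 19.3 in the Ift140 knockout and at 6.91, 6.34 and 5.67 in the Dync2h1 knockout, against 15.6, 15.3 and 17.1 in WT. The Dync2h1 libraries lay below all others, while the Ift140 libraries lay just above those of WT. The Dync2h1 knockout mean of 6.30 ± 0.62 was 39.4% of the WT mean of 16.0 ± 0.98 (-1.22, SE 0.19, limma adjusted p = 0.000187). The Ift140 knockout mean of 20.1 ± 3.20 differed from WT by 0.30 (SE 0.19), which did not pass (adjusted p = 0.314).

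Under flow Dab2 read 20.0, 21.4 and 37.4 in the Ift140 knockout and 4.91, 5.24 and 6.17 in the Dync2h1 knockout, against 10.9, 8.49 and 8.17 in WT. The Ift140 knockout was higher than WT by 1.37 (SE 0.19, adjusted p = 0.000171), and by 1.10 (adjusted p = 0.000144) without replicate 3. The Dync2h1 knockout was lower than WT (-0.66, SE 0.19, adjusted p = 0.0158), a call lost without WT flow replicate 1 (adjusted p = 0.0752) or without Dync2h1 knockout flow replicate 1 (adjusted p = 0.0610). The Dync2h1 knockout was lower than the Ift140 knockout, with differences of -1.52 (SE 0.19, adjusted p = 3.13e-05) static and -2.03 (SE 0.19, adjusted p = 1.33e-06) under flow, or -1.76 (adjusted p = 7.32e-07) without Ift140 knockout replicate 3.

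Amn (GRCm38, chromosome 12, 111271095 to 111276426, plus strand), which encodes the partner that cubilin needs to reach the surface, was at the edge of detection. It stood at 1.09, 0.570 and 0.497 in the Ift140 knockout under flow and at 0.153, 0.155 and 0 static. In the Dync2h1 knockout it stood at 0.0682, 0.408 and 0.122 under flow and at 0.0533, 0.122 and 0.403 static. In WT it stood at 0.394, 0.200 and 0.151 under flow and at 0.292, 0 and 0.148 static. The Ift140 knockout under flow was above the other groups with no overlap, while those other groups overlapped one another. Fitted without the filter on low values, flow against static in the Ift140 knockout gave 0.63 (SE 0.15, limma adjusted p = 0.0229) for Amn. The difference of this flow response from that of WT did not pass there (0.50, SE 0.22, limma adjusted p = 0.777). In that fit the Ift140 knockout against WT under flow did not pass (0.45, adjusted p = 0.114), and the Dync2h1 against the Ift140 knockout under flow did (-0.51, adjusted p = 0.0362). In static WT, where Cubn averaged 409.9, Amn averaged 0.147 ± 0.15.

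Counts of passing members between genotypes are given beside the share over all genes. The members were chosen with earlier results of these data known, so setting these side by side tests nothing. In static culture 2 of the 3 tested members passed for the Ift140 knockout against WT, where 16.5% of all tested genes passed (7.77% higher and 8.70% lower). All 3 passed for the Dync2h1 knockout against WT, where 26.2% of all genes passed (13.1% higher and 13.1% lower). Static, the Dync2h1 and Ift140 knockouts differed in 2 members, against 21.5% of all genes. Under flow, all 3 passed for the Ift140 knockout against WT (14.0% of all genes) and for the Dync2h1 knockout against WT (29.2%), and 2 for the Dync2h1 against the Ift140 knockout (32.6%). The comparisons within a culture condition share libraries.

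**Figure D2:**
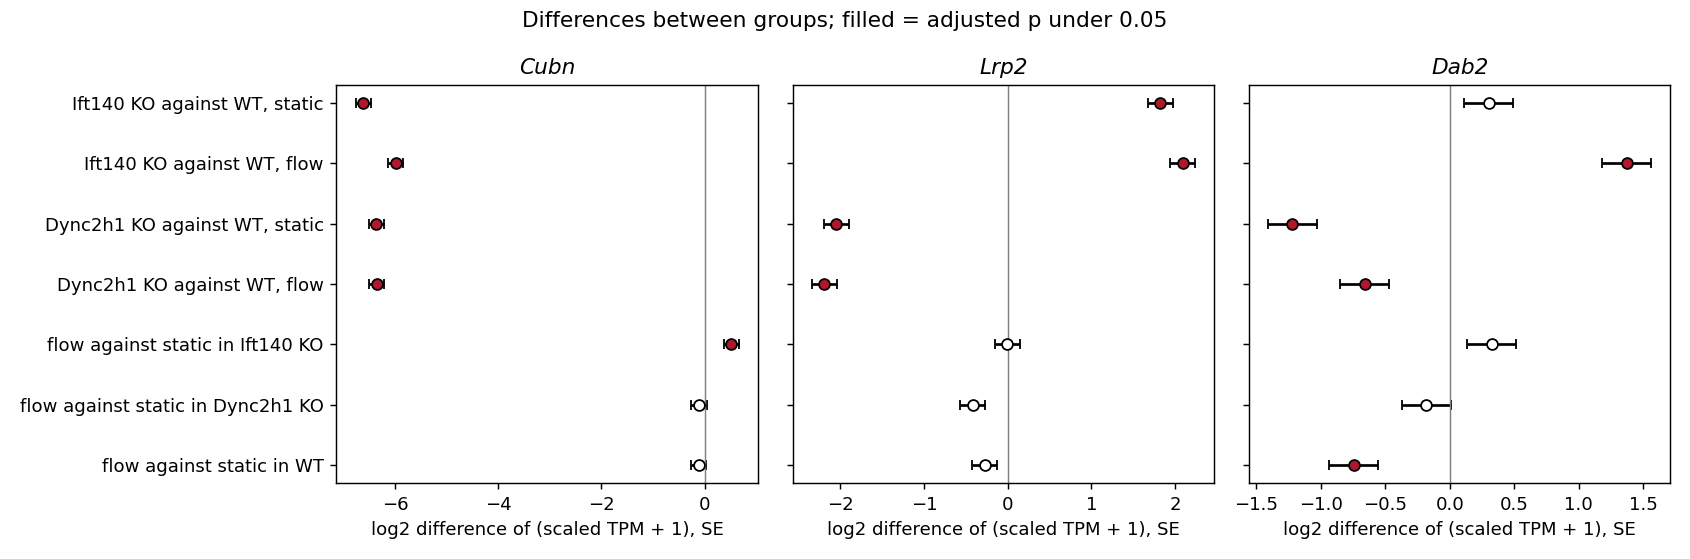
Log2 difference of scaled TPM + 1 with its SE for Cubn, Lrp2 and Dab2 in 7 comparisons, filled where the adjusted p is under 0.05; the horizontal scale differs between panels. Cubn differs from WT by -5.99 to -6.62 in both knockouts, Lrp2 has opposite signs in the 2 knockouts, and the differences between flow and static lie between -0.75 and 0.51.

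The same genes were then compared between flow and static culture within each line. In WT cells Dab2 fell to 9.20 ± 1.52 under flow, against 16.0 ± 0.98 static, with no overlap (-0.75, SE 0.19, limma adjusted p = 0.0109). Cubn averaged 380.3 ± 41.7 under flow and 409.9 ± 3.83 static (-0.11, SE 0.15, adjusted p = 0.670), and Lrp2 averaged 17.97 ± 2.93 under flow and 21.8 ± 1.97 static (-0.28, SE 0.15, adjusted p = 0.231). Thus 1 of 3 members passed in WT, where 19.4% of all genes passed (9.93% higher and 9.47% lower).

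In the Ift140 knockout Cubn averaged 5.03 ± 0.92 under flow and 3.25 ± 0.87 static, with overlapping libraries (0.51, SE 0.15, adjusted p = 0.0261). This call on a low level did not hold with the values scaled as deposited (adjusted p = 0.0899), in a fit of these 6 libraries alone (adjusted p = 0.273) or without flow replicate 3 (adjusted p = 0.0755). Lrp2 averaged 80.8 ± 20.0 under flow and 79.5 ± 2.16 static (-0.01, SE 0.15, adjusted p = 0.989; -0.19, adjusted p = 0.355, without replicate 3), and Dab2 averaged 26.3 ± 9.69 under flow and 20.1 ± 3.20 static (0.33, SE 0.19, adjusted p = 0.279). Without replicate 3 the Dab2 difference was 0.05 (adjusted p = 0.859). In this line 16.2% of all genes passed (8.07% higher and 8.12% lower), beside 1 of 3 members.

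In the Dync2h1 knockout none of the 3 members passed in limma, where 18.2% of all genes did (10.8% higher and 7.40% lower). Before adjustment, Lrp2 alone of the 3 had a limma p under 0.05. Lrp2 stood at 3.13 ± 0.41 under flow and 4.51 ± 0.37 static without overlap (-0.42, SE 0.15, limma adjusted p = 0.0652), and it passed with a pseudocount of 0.1 (adjusted p = 0.0327). Cubn (-0.11, adjusted p = 0.667) and Dab2 (-0.18, adjusted p = 0.564) overlapped between flow and static.

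The difference between flow responses was tested directly. For the Ift140 knockout minus WT it was 1.07 for Dab2 (SE 0.27, limma adjusted p = 0.196), 0.63 for Cubn (SE 0.21, adjusted p = 0.418) and 0.27 for Lrp2 (SE 0.21, adjusted p = 0.851). Without Ift140 knockout flow replicate 3 these were 0.80 (adjusted p = 0.119), 0.56 (adjusted p = 0.395) and 0.08 (adjusted p = 0.917). For the Dync2h1 knockout minus WT it was 0.56 for Dab2 (SE 0.27, adjusted p = 0.551), 0.002 for Cubn (SE 0.21, adjusted p = 1.00) and -0.14 for Lrp2 (SE 0.21, adjusted p = 0.921). None of the 3 members passed in limma for either difference, where 0.198% and 0.384% of all genes did. Before adjustment, limma gave Dab2 and Cubn a p under 0.05 for the Ift140 knockout and no member one for Dync2h1.

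Ordered by mean, Cubn stood highest in static WT and then WT under flow, which overlapped, and the 4 knockout groups followed, each overlapping its neighbour. Lrp2 stood highest in the Ift140 knockout under flow and static, which overlapped, then in static WT and WT under flow, which overlapped, then in the static Dync2h1 knockout and last in that line under flow. Dab2 followed the same order of groups, with static WT and WT under flow apart and the Dync2h1 groups overlapping. With the deposited scaling only the lowest Cubn groups and 2 middle Amn groups changed places.

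Across the 18 libraries Lrp2 and Dab2 ran together (Pearson r = 0.943 of log2 levels), while Cubn ran with neither (r = 0.03 with Lrp2 and 0.05 with Dab2). These are descriptions over libraries that fall into 6 groups and share their genotype and culture. Among 9527 genes with a mean of at least 5, the profiles most like Cubn were those of Grb10, an adaptor of the insulin receptor (r = 0.994), Ank2, a membrane skeleton adaptor (r = 0.991), and Pygl, the liver glycogen phosphorylase (r = 0.990). Grb10 averaged 0.0373 ± 0.065 in the static Ift140 knockout and 0.0163 ± 0.010 in the static Dync2h1 knockout, against 26.4 ± 4.05 in static WT. Levels of genes named here and below for their profile follow from that choice. Grb10 reached a mean of 5 only through its WT libraries. Arhgdig was the least like Cubn (r = -0.973), at 20.5 ± 0.99 and 18.8 ± 0.51 in the same knockouts against 4.196 ± 0.97 in WT.

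Closest to Lrp2 were Fras1, an extracellular matrix protein of epithelial basement membranes (r = 0.984), Mylk, the myosin light chain kinase (r = 0.973), and the imprinted gene Peg3 (r = 0.970). Fras1 averaged 24.3 ± 4.67 in the static Ift140 knockout and 1.29 ± 0.45 in the static Dync2h1 knockout, against 7.66 ± 1.56 in static WT. Closest to Dab2 were Arid1b, a chromatin remodelling subunit (r = 0.954), Lrp2 itself and Fras1 (r = 0.943 each). Mal, which encodes an apical membrane proteolipid, was the least like both Lrp2 (r = -0.982) and Dab2 (r = -0.947). It averaged 121 ± 11.9 in the static Ift140 knockout and 412 ± 21.8 in the static Dync2h1 knockout, against 184 ± 9.92 in static WT.

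Since Cubn and Lrp2 both lie on chromosome 2, the protein-coding genes nearest to each were read, a choice made after their values were seen. Beside Cubn, Rsu1 averaged 26.3 ± 2.71 in the static Ift140 knockout and 24.0 ± 2.89 in the static Dync2h1 knockout, against 33.7 ± 3.46 in WT. These differences of -0.35 (SE 0.15, limma adjusted p = 0.129) and -0.47 (SE 0.15, adjusted p = 0.0284) compare with -6.62 and -6.36 for Cubn. Trdmt1, on the other side, did not pass in either line (-0.25, adjusted p = 0.592, and -0.15, adjusted p = 0.743).

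Vim (chromosome 2, 13573927 to 13582826), the vimentin gene that follows Trdmt1, was modestly lower than WT in the Ift140 knockout and nearly lost in the Dync2h1 knockout. It averaged 192 ± 16.3 in the static Ift140 knockout (-0.51, SE 0.13, adjusted p = 0.0121) and 4.05 ± 0.72 in the static Dync2h1 knockout (-5.77, SE 0.13, adjusted p = 5.43e-14), against 272 ± 5.97 in WT. Beside Lrp2, Bbs5 averaged 15.9 ± 2.14 and 15.5 ± 1.12 in the static Ift140 and Dync2h1 knockouts, against 19.6 ± 2.15 in WT, and neither it (adjusted p = 0.145 and 0.0853) nor Fastkd1 (adjusted p = 0.570 and 0.195) passed. Of the further tested neighbours, Pter was lower in the Ift140 knockout (-0.72, adjusted p = 0.0151), and in the Dync2h1 knockout G6pc2 was lower (-0.78, adjusted p = 0.0134) and Dhrs9 higher (0.72, adjusted p = 0.0251), both with group means under 2. Rsu1 and Trdmt1 beside Cubn, and Bbs5 beside Lrp2, differed from static WT by less than Cubn and Lrp2 did. For Dhrs9 and G6pc2 the added 1 makes the differences come out small, so they are given as levels. Dhrs9 averaged 0.435 in the static Ift140 knockout and 1.07 in the static Dync2h1 knockout, against 0.252 in WT. G6pc2 averaged 1.51 and 0.246 in the same knockouts, against 1.16 in WT. Vim, further from Cubn, differed by -5.77 in the Dync2h1 knockout, against -6.36 for Cubn. Whether position played a part was not tested.

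**Figure D3:**
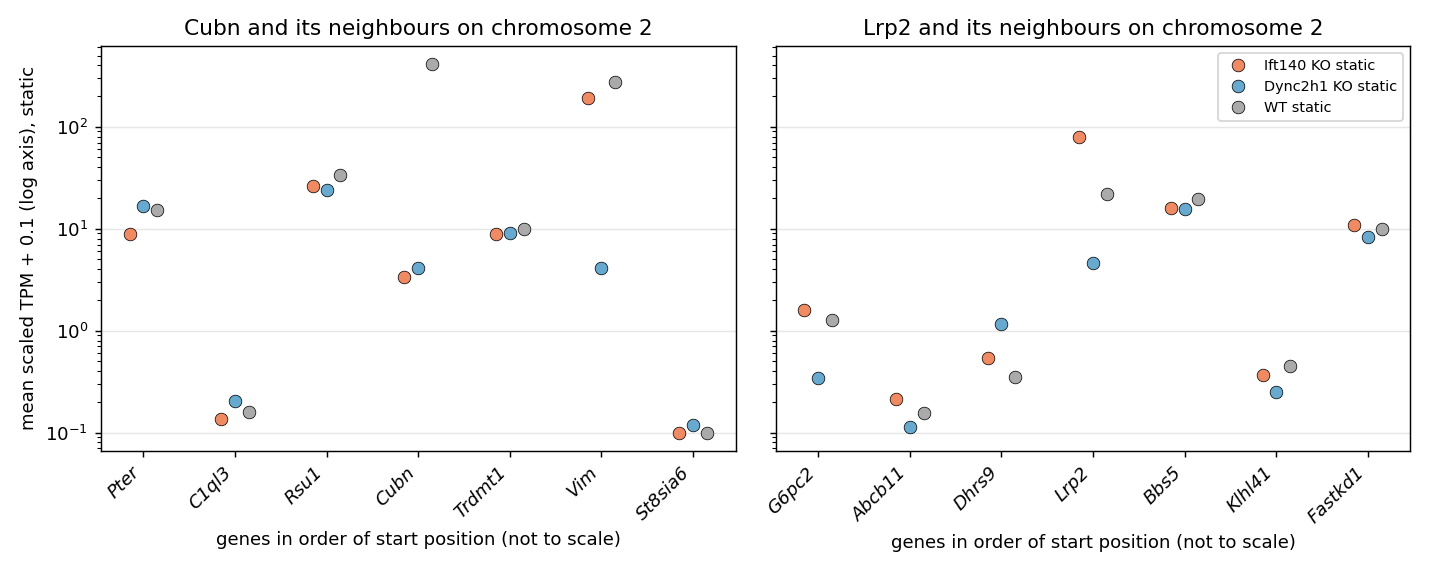
Mean scaled TPM + 0.1 on a log axis in static culture for Cubn (left) and Lrp2 (right) and the 3 nearest protein-coding genes on each side, in order of position and not to scale, for the Ift140 knockout, the Dync2h1 knockout and WT. Cubn is far lower in both knockouts than in WT while Rsu1 and Trdmt1 beside it lie close together, and Vim is low in the Dync2h1 knockout alone among the 3 groups.

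Other receptors of the megalin family moved less than Lrp2. Of 12 tested genes of the lipoprotein receptor family and its chaperone, 2 were higher and 2 lower in the static Ift140 knockout (median -0.06, against -0.02 over all genes), where 16.5% of all genes passed. In the static Dync2h1 knockout 2 were higher and 2 lower (median -0.06, against 0.00), where 26.2% of all genes passed. Lrp8, a reelin receptor, was higher in both, at 27.5 ± 1.77 and 29.4 ± 1.58 in the Ift140 and Dync2h1 knockouts against 18.8 ± 2.63 in WT (0.53, adjusted p = 0.00521, and 0.63, adjusted p = 0.000876). Vldlr was lower in both, at 134 ± 0.73 and 138 ± 5.95 against 177 ± 12.3 in WT (-0.41, adjusted p = 0.0179, and -0.36, adjusted p = 0.0207).

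Sorl1, a sorting receptor, was lower in the static Dync2h1 knockout (40.1 ± 3.00 against 65.8 ± 1.99 in WT, adjusted p = 0.000238). Lrp1, the close relative of megalin, averaged 37.1 ± 7.00 in the static Ift140 knockout and 21.2 ± 1.48 in the static Dync2h1 knockout against 33.9 ± 0.64 in WT, and neither difference passed (0.11, adjusted p = 0.814, and -0.66, adjusted p = 0.0717). Lrpap1, the chaperone that keeps megalin from binding ligands too early, averaged 66.1 ± 7.35 and 66.4 ± 8.15 against 68.1 ± 7.04 in WT and passed in none of the flow and static comparisons.

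Under flow the family counts were 2 higher and 1 lower of 12 in the Ift140 knockout, 1 higher and 2 lower in the Dync2h1 knockout, and 2 higher and 1 lower in WT, beside 16.2%, 18.2% and 19.4% of all genes. Lrp8 rose with flow in WT (45.1 ± 1.99 under flow against 18.8 ± 2.63 static, adjusted p = 2.49e-06) and also passed as higher in the Ift140 knockout (0.60) and the Dync2h1 knockout (0.44). Vldlr was lower under flow in all 3 genotypes, with differences of -0.37 in the Ift140 knockout, -0.65 in the Dync2h1 knockout and -0.52 in WT.

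**Figure D4:**
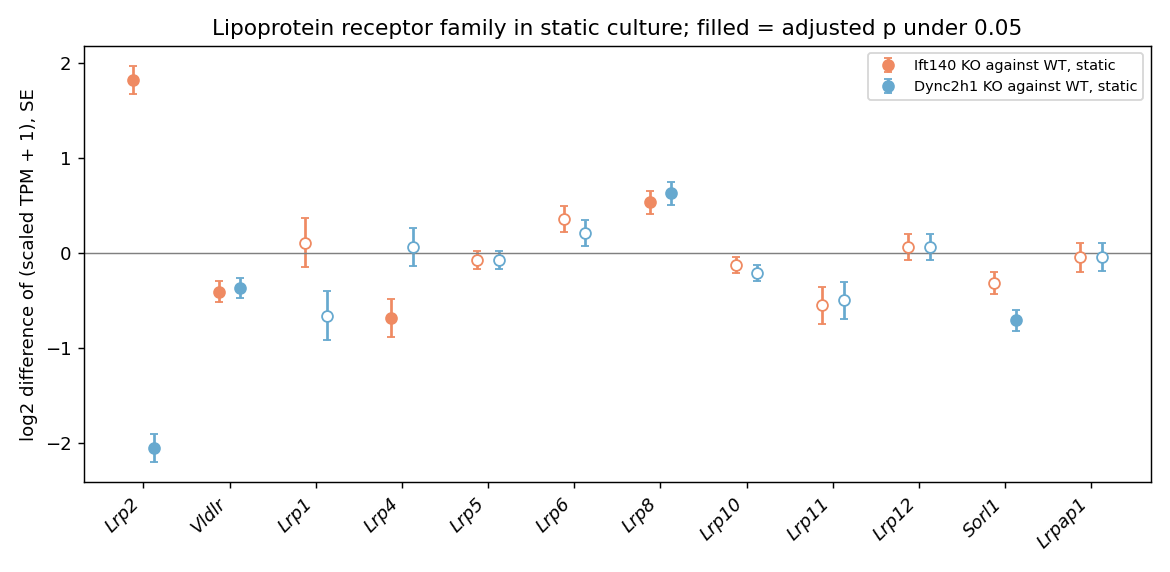
Log2 difference from WT with its SE in static culture for Lrp2 and 11 of the 12 tested genes of the lipoprotein receptor family list, in the Ift140 knockout and the Dync2h1 knockout, filled where the adjusted p is under 0.05. Lrp2 lies at 1.82 and -2.05, and every other gene drawn lies between -0.70 and 0.63.

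Among 26 tested genes of cargo adaptors and the clathrin coat, 1 was higher and 1 lower in the static Ift140 knockout, where 16.5% of all genes passed, and 4 were higher and 4 lower in the static Dync2h1 knockout, where 26.2% did. Myo6, the motor that Dab2 links to endocytic vesicles, was lower in both knockouts, at 50.3 ± 6.95 and 56.7 ± 4.66 against 76.9 ± 4.91 in WT (-0.61, adjusted p = 0.000672, and -0.43, adjusted p = 0.00449). Gipc1, which binds the megalin tail, was lower in the Dync2h1 knockout (-0.35, adjusted p = 0.00274) and did not pass in the Ift140 knockout (-0.23, adjusted p = 0.0507).

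With flow, 2 of these 26 genes were higher and 2 lower in the Ift140 knockout, 3 higher and 2 lower in the Dync2h1 knockout, and 1 higher and 2 lower in WT, beside 16.2%, 18.2% and 19.4% of all genes. Myo6 fell to 56.7 ± 0.96 under flow against 76.9 ± 4.91 static in WT (-0.43, adjusted p = 0.00651). It was also lower under flow in the Ift140 knockout (-0.36, limma adjusted p = 0.0241). In the Dync2h1 knockout it did not pass (-0.25, limma adjusted p = 0.106). Fcho1, a nucleator of clathrin pits, was lower under flow in the Ift140 knockout (-0.93), the Dync2h1 knockout (-0.94) and WT (-0.64).

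Of 27 tested genes of the apical endosome, its acidification and recycling, 2 were higher and 1 lower in the static Ift140 knockout (16.5% of all genes passed there) and 3 higher and 4 lower in the static Dync2h1 knockout (26.2% of all genes). With flow 2 were higher and 3 lower in the Ift140 knockout (16.2% of all genes), 6 higher and 2 lower in the Dync2h1 knockout (18.2%), and 2 higher and 1 lower in WT (19.4%). Clcn5, the endosomal chloride transporter mutated in Dent disease, in which less megalin and cubilin reaches the surface, did not pass in any of these comparisons. It averaged 48.9 ± 4.35 and 42.2 ± 1.77 in the static Ift140 and Dync2h1 knockouts against 38.7 ± 3.06 in WT. Ehd1, a recycling factor, was higher in both static knockouts (0.44 and 0.38), and Rab4a, of fast recycling, was lower in the Dync2h1 knockout (3.43 ± 0.70 against 7.80 ± 1.37 in WT, adjusted p = 0.00211).

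Cubilin and megalin serve the uptake of vitamin B12 with its carriers. Of 12 tested genes of vitamin B12 uptake and use, 2 were higher and 1 lower in the static Ift140 knockout (16.5% of all genes), and 2 higher and 4 lower in the static Dync2h1 knockout (26.2% of all genes). Tcn2, the carrier transcobalamin that megalin takes up, was lower in the Dync2h1 knockout, at 20.1 ± 1.33 against 32.3 ± 2.36 in WT (-0.66, adjusted p = 0.000406), and did not pass in the Ift140 knockout (-0.28, adjusted p = 0.103). Cd320, the transcobalamin receptor of most cells, was higher in the Ift140 knockout (29.4 ± 3.87 against 21.2 ± 2.84 in WT, adjusted p = 0.0270). With flow, 2 genes were higher and 2 lower in the Ift140 knockout (16.2% of all genes), 2 higher and 1 lower in the Dync2h1 knockout (18.2%), and 1 higher and 2 lower in WT (19.4%). Mut, the vitamin B12 dependent methylmalonyl-CoA mutase, was lower under flow in the Ift140 knockout (-0.69), the Dync2h1 knockout (-0.51) and WT (-0.59).

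Of the known ligands of these receptors, 11 were tested. In static culture, where 16.5% of all genes passed for the Ift140 knockout and 26.2% for the Dync2h1 knockout, 4 were higher and 4 lower in the Ift140 knockout, led by Clu, the apolipoprotein clusterin (214 ± 7.59 against 73.3 ± 6.09 in WT, adjusted p = 1.93e-09), and Gc, the vitamin D binding protein (6.53 ± 1.75 against 16.1 ± 2.43, adjusted p = 0.000312). In the Dync2h1 knockout 6 were higher and 3 lower, among them Plau, the urokinase gene (260 ± 15.1 against 67.4 ± 8.65 in WT, adjusted p = 8.77e-09), and Mt1, a metallothionein (21.4 ± 2.52 against 118 ± 14.1, adjusted p = 1.73e-09). With flow 5 were higher and none lower in the Ift140 knockout, 6 higher and 1 lower in the Dync2h1 knockout, and 6 higher and none lower in WT, beside 16.2%, 18.2% and 19.4% of all genes, with medians of 0.35, 0.56 and 0.72 against -0.01, 0.03 and -0.01 over all genes. The ligand list mixes secreted proteins of unlike function.

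Of 13 tested transcription factors and signalling receptors linked to these genes, 1 was higher and 2 lower in the static Ift140 knockout (16.5% of all genes passed) and 1 higher and 3 lower in the static Dync2h1 knockout (26.2%). With flow 2 were higher and 1 lower in the Ift140 knockout (16.2% of all genes), 2 higher and 1 lower in the Dync2h1 knockout (18.2%), and 5 higher and 2 lower in WT (19.4%). Hnf4a, a proximal tubule factor, did not exceed 0.108 in any library. Pparg, a nuclear receptor, was not tested. It averaged 0 in the static Ift140 knockout and 0.0170 ± 0.029 in the static Dync2h1 knockout, against 0.481 ± 0.15 in static WT, all under 1. Under flow it averaged 0 in the Ift140 knockout and 0.0215 ± 0.037 in the Dync2h1 knockout. In WT under flow it averaged 1.57 ± 1.28, with libraries from 0.579 to 3.02.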

How the data were processed

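Total RNA of 18 libraries was sequenced. Per the submitters' processing notes, FastQC 0.11.5, Bowtie2 2.1.0 and RSEM 1.2.31 were used, with builds mm10 and GRCm38.p5 named. The authors deposited TPM per gene, recognised from its sum in each library. A leading row that repeats the sum, and 4 rows sharing a name, were left out. TPM keeps no depth, so no counting interval can be given. Coordinates are from GENCODE on GRCm38.

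Libraries were scaled with trimmed means (trimming 0.3 of ratios and 0.05 of abundances at each end), and genes with at least 1 scaled TPM in 3 libraries were kept. limma 3.58.1 in R 4.3.3 fitted log2(scaled TPM + 1) with 6 group means and 12 residual degrees of freedom, an abundance trend and Benjamini-Hochberg adjustment at 0.05. The method was tested on simulated data in which the spread depended on abundance alone. These held no library standing apart, as Ift140 knockout flow replicate 3 did. The members and the 6 gene lists (133 genes, 101 tested) were chosen with earlier results of these data known. From each list up to 3 passing genes by smallest p could be named in each static and flow comparison, plus genes paired with a member by role, and for each member the 3 most and the 1 least similar profile. Other list genes and the neighbours were named after their values were seen. Alternatives varied the scaling, filter, pseudocount, fitted libraries, spread trend and replicate block. Some genes of the lists are counted but not reported by name here.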

Additional observations from a re-analysis of the deposited data

How the results depend on the processing

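For Cubn, Lrp2 and Dab2, 33 differences were recomputed under 27 alternatives, and 26 of them kept their direction and their side of the threshold in all. Cubn with flow in the Ift140 knockout (0.51) no longer passed with the deposited scaling (0.51, adjusted p = 0.0899), no filter (0.51, adjusted p = 0.0545), a pseudocount of 5 (0.28, adjusted p = 0.0555) or only the groups compared (0.51, adjusted p = 0.273), and lay between 0.34 and 0.65 when each library was left out, losing the call without static replicate 1 (adjusted p = 0.130), flow replicate 1 (adjusted p = 0.0862) or flow replicate 3 (adjusted p = 0.0755). Lrp2 with flow in the Dync2h1 knockout passed with a pseudocount of 0.1 (-0.52) and spanned -0.49 to -0.35 on leaving out libraries, passing without Ift140 knockout flow replicate 2 (adjusted p = 0.0387) or 3 (adjusted p = 0.0163), which changes only the shared spread. Lrp2 with flow in the Ift140 knockout, near 0, spanned -0.19 to 0.14. Dab2 in the Dync2h1 knockout against WT under flow spanned -0.74 to -0.54. Cubn in the Dync2h1 against the Ift140 knockout under flow passed with the deposited scaling (-0.54, adjusted p = 0.0441) and spanned -0.50 to -0.28, passing without Ift140 knockout static replicate 1 (adjusted p = 0.0306), static replicate 3 (adjusted p = 0.0497) or flow replicate 2 (adjusted p = 0.0174). For the flow response of the Dync2h1 knockout minus WT, Cubn near 0 turned to -0.10 with the deposited scaling and -0.0246 with a pseudocount of 0.1 and spanned -0.0743 to 0.0906, and Lrp2 turned to 0.00257 with a pseudocount of 5. The causes were not tested.

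Genes passing for the flow response of the Ift140 knockout minus WT numbered 33, against 19 with the deposited scaling, 55 without a filter, 5 with only the groups compared and 12 to 67 on leaving out libraries, with 67 without Ift140 knockout flow replicate 3. For Dync2h1 they numbered 64, against 152 with only the groups compared and 28 to 152 on leaving out libraries. With only the groups compared, counts were 503 in place of 2701 for flow in the Ift140 knockout, 489 in place of 2339 for the Ift140 knockout against WT under flow, and 2440 in place of 5442 for the Dync2h1 against the Ift140 knockout under flow. Same-numbered deviations correlated at -0.18 to 0.11 over 21 pairs, and 9 of 21 had their best partner under the same number. These pairs reuse the same libraries, so this does not settle whether the replicate numbers pair the samples. With a replicate block no call of the members changed (Cubn with flow in the Ift140 knockout had adjusted p = 0.0349), and the response differences numbered 13 and 42 genes. Without Ift140 knockout flow replicate 3, an alternative chosen after seeing the data, the flow counts of lists in that line (higher, then lower) were 3 and 2 for the receptor family, 1 and 2 for adaptors, 1 and 2 for endosome genes, 2 and 1 for vitamin B12 genes, 6 and 0 for ligands and 4 and 1 for transcription factors and receptors. Depth is unknown from TPM, which limits statements on Amn and on residual Cubn.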
